A study of Mus musculus with 8 samples.

Results

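On the autosomes, 699 promoter regions carried H3K27ac in round spermatids (RS) of wild-type mice and overlapped no H3K27ac region of pachytene spermatocytes (PS), and they are described here as gained promoter regions. They are 6.70% of the 10436 autosomal RS promoter regions. Of all 26489 autosomal RS regions, 10431 overlapped no PS region. The rule took peak intervals on chromosomes 1 to 19, merged those of the 2 replicates of a stage, and kept a merged region when both replicates had an interval in it. A region took its class and its gene from its interval with the highest fold enrichment, and the class promoter meant, in the deposited lists, that an interval ended within 1000 bp of a transcription start site. The regions were thus chosen by the peak lists of both stages, and H3K27ac being present in RS and absent in PS is the choice and not a finding, so that those values are given below with no test.

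The series holds 8 samples from testes of adult C57BL/6 mice. H3K27ac ChIP-seq was made from wild-type PS and from wild-type RS, 2 replicates each, by ChIPmentation, in which a transposase adds the sequencing adapters to the immunoprecipitated chromatin. RNA-seq was made from PS and from RS of mice lacking both Rnf8, which encodes a ubiquitin ligase, and the X-linked Scml2, which encodes a germline Polycomb protein, again with 2 replicates each. These double knockouts are called dKO, and all 4 RNA samples carry both deletions, so that stage is the only labelled difference among them. Cells were purified by sedimentation through BSA, and PS and RS of the dKO were obtained from single males. The acetylation and the RNA thus come from different genotypes and different animals, and the RNA of wild-type cells was not analysed here.

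H3K27ac is placed on nucleosomes at active promoters and enhancers, mainly by the acetyltransferases p300 and CBP. Pachytene spermatocytes are in meiotic prophase, and round spermatids are the haploid cells that follow both meiotic divisions and go on to build the acrosome and flagellum and to replace histones by protamines. Most mouse promoters of widely used genes lie in CpG islands, stretches in which the dinucleotide CG is not depleted, whereas many tissue-restricted genes have promoters with few CG.

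The promoters below are those of the 6 strongest gained regions whose start site lay inside the region and stood in the RefSeq promoter table (build GRCm38.p6, the same assembly as mm10), and of the gene with the largest rise of RNA. They are shown because the letters show how few CG these promoters hold. Each runs from 250 bases before to 50 bases after the start site in the RefSeq table, 5′ to 3′ on the gene's strand, and capitals mark every CG. For Gm5901 the RefSeq start site lies upstream of the start in the deposited list (position 105375098), so its window ends before the latter. The windows are 4930430F21Rik (chr15:31038876-31039175, plus strand), Tppp2 (chr14:51918511-51918810, plus), Gm5592 (chr7:41284077-41284376, plus), 1700128A07Rik (chr14:106486471-106486770, minus), Dpy30 (chr17:74323895-74324194, minus), Olfr128 (chr17:37923318-37923617, plus) and Gm5901 (chr7:105374788-105375087, plus).
4930430F21Rik: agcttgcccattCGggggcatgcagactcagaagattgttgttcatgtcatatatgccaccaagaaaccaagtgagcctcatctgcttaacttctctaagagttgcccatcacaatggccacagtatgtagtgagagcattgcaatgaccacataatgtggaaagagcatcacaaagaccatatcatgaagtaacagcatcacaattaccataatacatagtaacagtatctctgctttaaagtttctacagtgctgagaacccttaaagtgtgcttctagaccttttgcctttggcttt
Tppp2: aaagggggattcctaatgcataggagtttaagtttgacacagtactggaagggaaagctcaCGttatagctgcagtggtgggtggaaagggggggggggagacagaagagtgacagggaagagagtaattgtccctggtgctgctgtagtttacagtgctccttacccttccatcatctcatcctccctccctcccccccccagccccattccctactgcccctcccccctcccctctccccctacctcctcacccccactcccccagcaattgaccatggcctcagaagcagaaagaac
Gm5592: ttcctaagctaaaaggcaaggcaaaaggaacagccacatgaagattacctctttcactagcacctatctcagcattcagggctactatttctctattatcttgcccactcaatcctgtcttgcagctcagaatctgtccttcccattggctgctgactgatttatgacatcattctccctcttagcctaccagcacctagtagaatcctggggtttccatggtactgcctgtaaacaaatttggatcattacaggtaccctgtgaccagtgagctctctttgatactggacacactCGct
1700128A07Rik: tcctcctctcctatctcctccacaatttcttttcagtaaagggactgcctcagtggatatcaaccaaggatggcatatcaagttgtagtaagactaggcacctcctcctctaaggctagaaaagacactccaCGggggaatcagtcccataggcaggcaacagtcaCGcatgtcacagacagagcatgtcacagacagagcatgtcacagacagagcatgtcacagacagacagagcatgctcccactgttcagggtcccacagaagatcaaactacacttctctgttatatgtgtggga
Dpy30: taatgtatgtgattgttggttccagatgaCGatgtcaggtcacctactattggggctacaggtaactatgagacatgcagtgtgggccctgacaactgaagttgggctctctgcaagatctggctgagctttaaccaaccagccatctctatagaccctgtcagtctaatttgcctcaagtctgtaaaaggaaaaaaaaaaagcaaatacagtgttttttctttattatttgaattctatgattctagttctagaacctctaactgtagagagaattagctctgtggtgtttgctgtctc
Olfr128: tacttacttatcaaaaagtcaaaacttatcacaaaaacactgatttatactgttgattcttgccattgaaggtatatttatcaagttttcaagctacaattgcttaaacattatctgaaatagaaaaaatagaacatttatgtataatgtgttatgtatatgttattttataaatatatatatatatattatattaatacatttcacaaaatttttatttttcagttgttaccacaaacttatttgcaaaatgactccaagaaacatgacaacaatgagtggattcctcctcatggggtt
Gm5901: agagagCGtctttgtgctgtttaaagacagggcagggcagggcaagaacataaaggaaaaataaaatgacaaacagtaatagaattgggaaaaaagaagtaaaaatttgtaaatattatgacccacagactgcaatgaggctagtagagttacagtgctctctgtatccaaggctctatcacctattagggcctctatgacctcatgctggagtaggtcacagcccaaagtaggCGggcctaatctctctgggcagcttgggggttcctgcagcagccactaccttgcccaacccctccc

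For comparison, the same window is given for the strongest PS promoter region without an RS region, at Lef1, a transcription factor of Wnt signalling (chr3:131110047-131110346, plus), and for the strongest promoter region shared by both stages, at Hnrnph1, an RNA-binding protein (chr11:50377428-50377727, plus). Both were chosen after their values were seen.
Lef1: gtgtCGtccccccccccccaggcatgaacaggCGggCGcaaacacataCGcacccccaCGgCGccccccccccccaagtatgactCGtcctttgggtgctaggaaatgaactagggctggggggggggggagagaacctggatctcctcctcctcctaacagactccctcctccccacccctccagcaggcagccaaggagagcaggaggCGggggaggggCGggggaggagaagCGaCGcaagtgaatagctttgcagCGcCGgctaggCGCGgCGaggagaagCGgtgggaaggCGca
Hnrnph1: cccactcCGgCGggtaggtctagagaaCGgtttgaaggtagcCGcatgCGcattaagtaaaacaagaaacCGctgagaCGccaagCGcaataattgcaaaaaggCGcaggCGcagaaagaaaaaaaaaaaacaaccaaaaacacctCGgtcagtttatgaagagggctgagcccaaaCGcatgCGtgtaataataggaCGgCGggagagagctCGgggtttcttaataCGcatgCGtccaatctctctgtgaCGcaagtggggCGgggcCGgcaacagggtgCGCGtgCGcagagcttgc
Counted over 300 bases, the 7 gained promoters held 0 to 2 CG, the Lef1 window 18 and the Hnrnph1 window 24. The start-site windows of all gained regions, described below, had a median of 6 CG, so the printed promoters lie below the middle of the set.

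The low CG content held across the gained regions. In the 300 bp around the summit of the strongest interval, the ratio of observed to expected CpG had a median of 0.226 over the 699 gained regions, and 12.7% of them (89) reached 0.6, a value often used to mark a CpG island. The 9737 RS promoter regions that overlapped a PS region (kept regions) had a median of 0.721, and 67.3% reached 0.6. The 1586 PS promoter regions that overlapped no RS region (lost regions) had a median of 0.594, with 49.2% at 0.6 or above. Lost regions were about as weak as gained ones, so the comparison was repeated at like strength. Among regions whose mean fold enrichment lay in the middle range of the gained regions, from the lower to the upper quartile, the median ratio was 0.652 in 1331 kept and 0.613 in 809 lost regions. The GC share had a median of 50.3% in gained, 64.0% in kept and 60.3% in lost regions. These are counts over regions, which are not replicates, and no test was made.

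**Figure D1:**
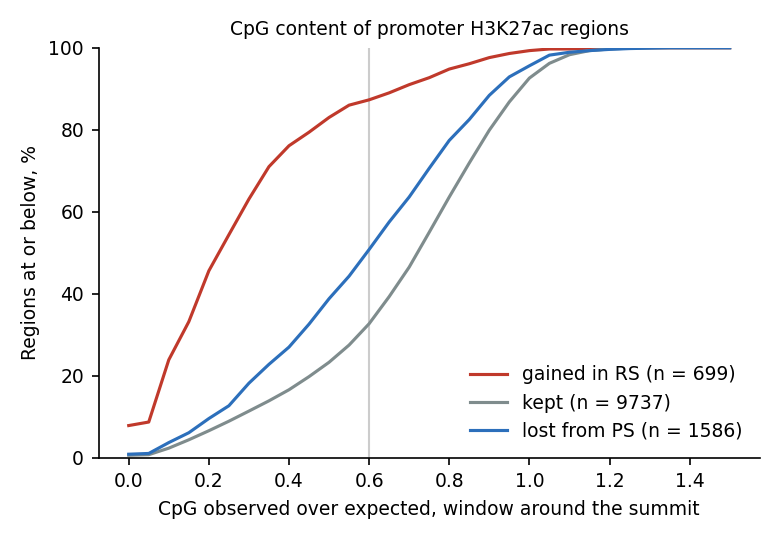
Cumulative share of promoter H3K27ac regions (y axis, %) by the ratio of observed to expected CpG in the 300 bp around the summit (x axis, no unit), for gained, kept and lost regions, with a grey line at 0.6. At 0.6, 87.3% of gained, 50.8% of lost and 32.7% of kept regions lie at or below the line.

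At the start sites of the genes the same order was seen. The window from 250 bases before to 50 after the start site was read from the mm10 genome for the 623 different start sites of the gained regions. Its ratio of observed to expected CpG had a median of 0.313, against 0.56 over the 24751 autosomal start sites of the RNA tables, 0.799 for kept and 0.649 for lost regions. It was 0.242 for the 307 start sites inside a gained region. A ratio of at least 0.6 was reached by 29.1% of gained, 77% of kept, 57.1% of lost and 47.4% of all start-site windows. Repeat-masked bases made up 12.3% of these start-site windows on average for gained, 7.63% for kept and 10.6% for lost regions, and 10.6% over all start sites. In the summit windows they made up 14.9% for gained regions, against 5.58% for kept and 7.63% for lost regions. For gained regions with the start site inside, the summit windows held 11.4%.

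Short motifs of factors known from the testis were counted in these start-site windows on both strands. The cAMP-response element TGACGTCA, bound by CREM, a regulator of spermatid genes, was in 1.77% of the gained windows (11) and in 2.32% of all windows. The shorter form TGACGCA was in 0.963% of gained and 2.50% of all windows. GTTGCC, part of the X-box bound by RFX factors, was in 16.5% of gained (103), 14.1% of kept, 9.99% of lost and 11.8% of all windows. AACTG, the core of MYB sites, was in 42.9% of gained and 41.6% of all windows. TATAAA was in 12.5% of gained, 6.09% of kept and 12.7% of all windows. CCAAT was in 34.7% of gained and 37.4% of all windows, and the E-box CACGTG was in 4.98% of gained and 7.76% of all windows. None of these motifs contains another, and those with a CG in them depend on the CG content described above. Of the printed promoters, 4930430F21Rik and 1700128A07Rik held GTTGCC on the plus and the minus strand of the window, Dpy30 and Olfr128 held AACTG, Olfr128 held TATAAA on both strands, and Gm5592, Dpy30 and Gm5901 held CCAAT. A match is a run of letters and was not tested as a binding site.

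Gained regions were weak and narrow. The fold enrichment is the ratio of the fragment pileup at a summit to a single background constant per sample, as the authors' software gave it, and it is not scaled between samples. Its median over the 699 regions was 5.70 in RS replicate 1 and 5.22 in RS replicate 2, with a range from 2.85 to 17.9 in replicate 1 and from 3.48 to 13.9 in replicate 2. Kept regions had medians of 14.6 and 11.03 in the same replicates. A fold enrichment of at least 10 in both replicates was reached by 14 gained regions (2.00%) and by 55.6% of kept regions. Pileups were accordingly low, with a median of 13 fragments in replicate 1 and 8 in replicate 2, and the number of reads per ChIP sample is unknown. The width of gained regions had a median of 756 bp (160 to 4243 bp), against 2090 bp for kept and 644 bp for lost regions. At most 500 bp were covered by 212 gained regions (30.3%), and at least 2000 bp by 73 (10.4%).

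Between the RS replicates, the log2 fold enrichment of the gained regions correlated with Pearson's r of 0.695 across the 699 regions, against 0.934 across kept regions. The regions share their libraries, and the gained regions span a smaller range of values. The RS replicate 1 list held 72928 autosomal intervals and the replicate 2 list 44726, while the PS lists held 38519 and 46177. Width and strength went together, with a Spearman's rho of 0.654 across gained regions.

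**Figure D2:**
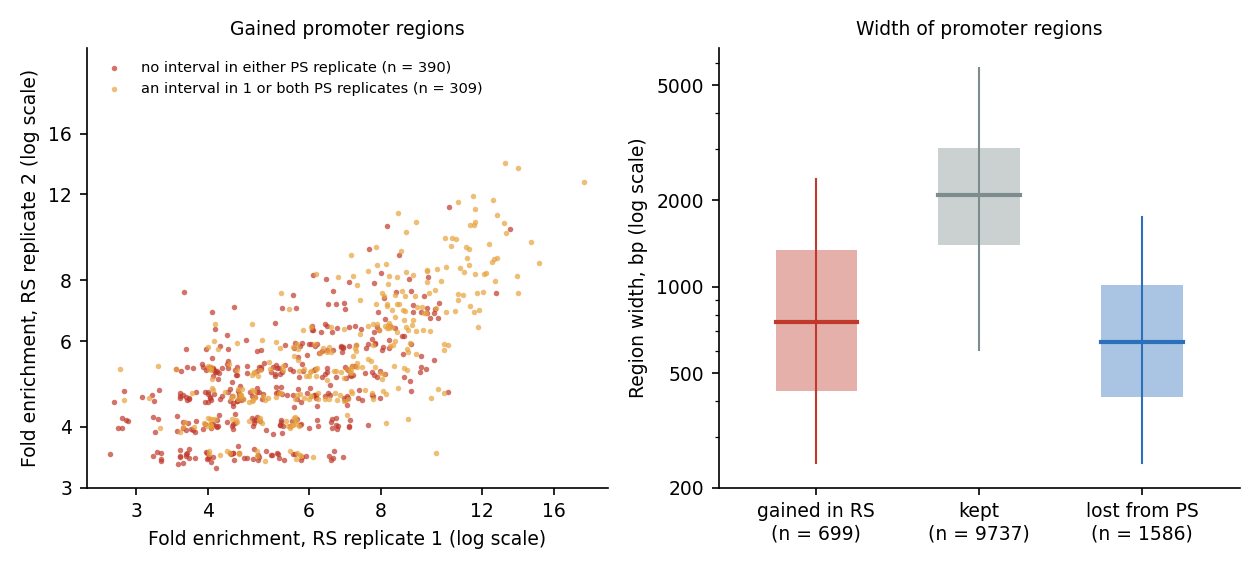
Left, fold enrichment of each gained region in RS replicate 1 (x axis, log scale) and RS replicate 2 (y axis, log scale), with points shifted slightly at random because the values are discrete, in red for the 390 regions with no PS interval and in orange for the 309 with a PS interval. Right, region width in bp (log scale), with the median, quartiles (box) and 5th to 95th percentiles (line), where gained (median 756 bp) and lost (644 bp) regions lie below kept ones (2090 bp).

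The absence from PS was not complete for every region. No interval of either PS replicate touched 390 gained regions (55.8%). An interval of PS replicate 1 alone lay in 128, of PS replicate 2 alone in 125, and in 56 both PS replicates had an interval but the intervals did not touch each other, so that no PS region was formed. Where present, the PS fold enrichment was low, with medians of 4.12 in replicate 1 (184 regions) and 4.39 in replicate 2 (181 regions) and maxima of 6.996 and 7.125. The stronger gained regions more often had a PS interval: the median of the mean RS fold enrichment was 6.24 in the 309 regions with a PS interval and 5.00 in the 390 without. Among the 10 strongest regions, only that of Olfr128 had no PS interval.

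A part of the gained regions flanked a PS region. A PS region lay within 1000 bp of 193 gained regions (27.6%) and within 500 bp of 155. Those 193 were narrower than the whole set, with a median width of 519 bp, and their median mean fold enrichment was 4.97. At the edge of the rule, the gained regions closest to a PS region were those of Bpgm (11 bp away), Ano6 (21 bp) and Syna (24 bp), and the RS promoter regions left out with the smallest overlap were those of Chrnb2 (4 bp shared), Ldb1 (7 bp) and Tcf7l1 (9 bp). Bpgm encodes bisphosphoglycerate mutase, and its gained region reached a fold enrichment of 8.14 and 5.81 in the RS replicates beside a PS region of 16.5 and 19.7 in the PS replicates.

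Gained regions also lay differently on their genes. The annotated start site fell inside 307 of them (43.9%), against 91.3% of kept and 53.0% of lost regions. The gene had only noncoding RefSeq transcripts in 145 regions (20.7%), against 4.41% of kept and 7.88% of lost regions. The regions named 636 genes, of which 142 (22.3%) bore RIKEN clone names, compared with 8.80% of the genes of kept regions. A further 41 were Gm-numbered genes and 11 were microRNA genes, and 81 genes had more than 1 gained region. Of the 636 genes, 219 also had a promoter region elsewhere that was found in PS. By chromosome, the gained share of RS promoter regions ran from 2.98% on chromosome 16 to 11% on chromosome 14.

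RNA in the dKO was then compared between RS and PS for these genes, since the RNA took no part in choosing the regions. All 636 genes were in the RNA tables. Both RS samples lay above both PS samples in RPKM (reads per kilobase of transcript, scaled to the number of mapped reads) for 431 of the 636 (67.8%), and below for 13.7%. Over all 23343 genes in the tables these shares were 31.8% above and 29.0% below. This set, like all genes tested below, also holds genes outside the autosomes, which could not be members. Over the 636 genes, the median RPKM was 1.00 and 1.09 in the PS replicates and 3.40 in RS replicate 1 and 3.41 in RS replicate 2. At least 1 RPKM in both replicates of a stage was reached by 303 genes in PS and 430 in RS, and at least 10 RPKM by 112 in PS and 192 in RS. No read in any of the 4 samples was counted for 17 genes.

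In edgeR's quasi-likelihood test over all genes, with Benjamini-Hochberg adjustment over the 14647 genes that reached 10 counts in 2 or more samples, a gene was called at an adjusted p under 0.05 and a change of more than 1.5-fold. Of all genes tested, 30.4% were called higher in RS and 27.6% lower. Of the 636 genes of the gained regions, 522 passed the filter on counts, 337 were called higher, 55 lower, and 130 of those tested were not called. The 114 genes that were not tested had too few reads. Of the 522, 90 passed only because of their RS counts, so the 64.6% called higher among those tested overstates the share among all members, which was 53.0% of 636 against 19.1% of all 23343 genes. The median log2 fold change over the 522 was 1.87, with quartiles of 0.26 and 3.05, beside 0.01 over all genes tested. Called and more than 4-fold higher were 256 of the 522 (49.0%), beside 15.6% of all genes tested. The filter bears on this share and on the median too. Only through their RS counts passed 90 of the 522 members, beside 1060 of all 14647 genes tested. With 2 samples per stage, an exact permutation test of a single gene could not reach 0.05, and these p-values rest on the spread shared across genes. The labels call the samples replicates without naming the animals.

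The genes of kept regions moved the other way on balance. Of 10297 tested, 23.8% were called higher in RS and 32.9% lower, with a median log2 fold change of -0.20. Of the 1162 tested genes of lost regions, 25.4% were higher and 22.1% lower, with a median of 0.15. Genes with no promoter region in either stage were mostly silent, and both RS lay above both PS for 26.0% of these 9754 genes. Among the 2550 of them that passed the filter, 47.2% were called higher.

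**Figure D3:**
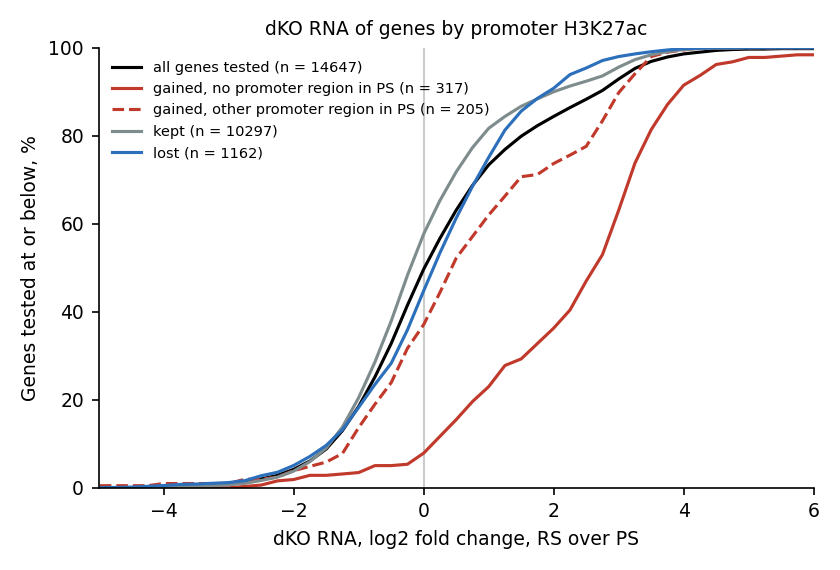
Cumulative share of genes tested (y axis, %) by the log2 fold change of dKO RNA, RS over PS (x axis), for all genes tested, for genes of gained regions without (solid red) and with (dashed red) another promoter region found in PS, and for genes of kept and lost regions. At a log2 fold change of 0 or below lie 49.7% of all genes tested, 7.89% of genes of gained regions without another promoter region in PS, 37.1% of those with such a region, 57.7% of genes of kept and 44.8% of genes of lost regions.

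The RNA differed among the members with the kind of region. Of the 417 genes for which no promoter region was formed in PS, both RS samples lay above both PS samples for 317 (76.0%). Some of the 417 had PS intervals that formed no region, such as Tppp2 (3.29 and 4.38 in the PS replicates). Of the 219 genes that had another promoter region in PS, this held for 114 (52.1%). In the former group 246 of 317 tested genes were called higher and 11 lower, with a median log2 fold change of 2.62, and in the latter 91 of 205 were called higher and 44 lower, with a median of 0.37. Over all genes of each group, tested or not, 246 of 417 and 91 of 219 were called higher, beside 4448 of all 23343 genes. Where the start site lay inside the gained region, RS lay above PS for 247 of 310 genes (79.7%), and where it lay outside, for 184 of 326 (56.4%). Noncoding genes had low levels, with median RPKM of 0.22 and 0.28 in PS and 2.04 and 1.89 in RS, and RS lay above PS for 98 of 128 (76.6%). Genes with a CG-poor start-site window, with a ratio under 0.6, were called higher in 267 of 354 tested, and the others in 70 of 168. Counting untested genes too, these were 267 of 447 and 70 of 189. These groups overlap, and the difference between them was not tested.

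Stronger regions went with more frequent rises. The genes were divided into 3 groups of similar size at fold enrichments of 4.85 and 6.39 of their strongest gained region. Both RS lay above both PS for 120 of 220 genes (54.5%) in the weakest group, 132 of 206 (64.1%) in the middle group and 179 of 210 (85.2%) in the strongest. The share below fell from 19.1% to 17.0% and 4.76%. Across the 522 tested genes, the fold enrichment in wild-type RS and the log2 fold change in the dKO had a Spearman's rho of 0.405, and across all 636 genes the fold enrichment and the mean RS RPKM had a rho of 0.216. Both are descriptions across genes, which share the same libraries.

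**Figure D4:**
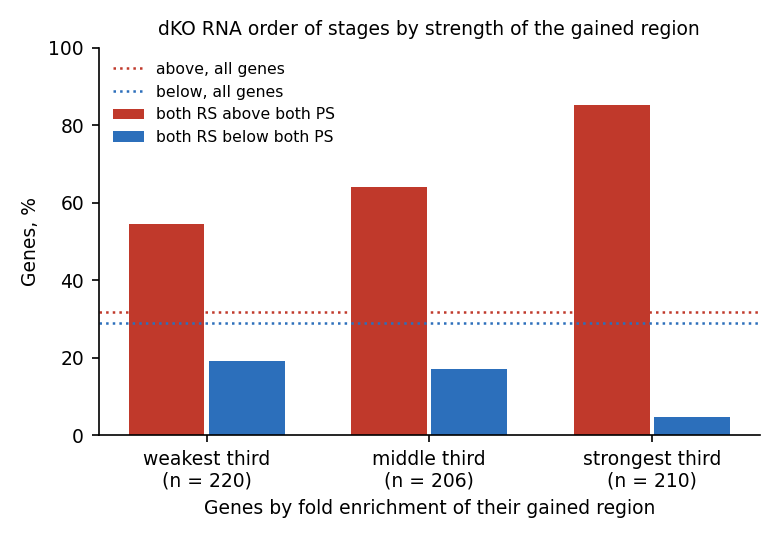
Share of genes of gained regions (y axis, %) with both dKO RS samples above (red) or below (blue) both dKO PS samples, in 3 groups by the fold enrichment of their region (x axis), with dotted lines for all genes in the tables (31.8% above, 29.0% below). The red bars are 54.5%, 64.1% and 85.2% from the weakest to the strongest group.

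Of the 10 strongest gained regions, 5 belonged to genes with RIKEN clone names or Gm numbers. The strongest was at the noncoding gene 4930430F21Rik (chr15:31037529-31040448, 2920 bp), with a fold enrichment of 17.9 and 12.8 in the RS replicates and 3.29 and 4.38 in separate PS intervals. Its RNA was at 0 RPKM in both PS samples and at 1.87 and 1.27 in RS. Against a floor of 3 counts over both PS libraries together, this was at least 9.58-fold higher. It was called higher (adjusted p = 0.00112).

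Tppp2, a testis-expressed member of the tubulin polymerization-promoting proteins, had its region at chr14:51917436-51920617 (3182 bp), with a fold enrichment of 12.6 and 11.6. Its RNA was at 12.3 and 14.9 RPKM in PS and at 219 and 230 RPKM in RS. The groups did not overlap, and the log2 fold change was 4.08 ± 0.17 (SE, adjusted p = 3.29e-06). Dpy30, a core subunit of the complexes that methylate H3K4, had a region of 3308 bp at chr17:74321492-74324799 with a fold enrichment of 11.4 and 12.2. Its RNA rose from 34.6 and 30.4 RPKM to 129 and 99.5 RPKM, a log2 fold change of 1.87 ± 0.17 (adjusted p = 3.46e-05), and Dpy30 had another promoter region in PS. The noncoding genes 4933406G16Rik and 1700128A07Rik rose as well, from at most 0.318 RPKM in PS to between 1.62 and 3.82 RPKM in RS.

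In other strong regions the RNA stayed very low. Dux, a homeobox factor of early embryos that lies in a repeated array, had a region of 13.8 and 13.4 at chr10:58231711-58232820 and a single read in each PS sample, against 10 and 6 reads in RS, and was not tested. The array copies share sequence, so that both values are uncertain. Vmn2r86, a vomeronasal receptor, had a region of 13.0 and 10.4 at chr10:130456705-130459018 that did not reach its start site, and at most 2 reads in any sample. 1700081H22Rik (13.0 and 13.9) had at most 2 reads in PS and 10 and 5 in RS. Gm5592 was called higher (log2 fold change 1.30 ± 0.47, adjusted p = 0.038) with RPKM under 1 in all 4 samples, a call that was lost with DESeq2 (adjusted p = 0.15) and without PS replicate 1 (adjusted p = 0.124) or either RS replicate.

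The 5 widest gained regions all belonged to genes called higher in RS. Pip5kl1, a phosphatidylinositol phosphate kinase-like gene, had the widest region, of 4243 bp (chr2:32574134-32578376), and rose from 0.238 and 0.856 RPKM in PS to 5.48 and 5.30 RPKM in RS. Mical3, a flavoprotein monooxygenase acting on the actin cytoskeleton (3696 bp, chr6:121078818-121082513), rose from 5.63 and 8.05 to 99.5 and 106 RPKM, a log2 fold change of 3.53 ± 0.16 (adjusted p = 3.29e-06). The noncoding gene 1700009J07Rik (3470 bp) rose from 2.4 and 6.89 to 81.8 and 94.3 RPKM, and 1700019O17Rik (3424 bp) from 3.11 and 4.39 to 62.0 and 51.1 RPKM. Iqcf6, an IQ-motif gene (3396 bp), rose from 2.41 and 3.799 to 29.0 and 16.7 RPKM. In each of the 5 genes the lower RS sample was at least 4 times the higher PS sample.

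Among the largest rises, Gm5901 stood apart. No read was counted in either PS sample, and RS had 326 and 236 reads (23.3 and 20.1 RPKM), at least 163-fold above the floor of 3 counts over both PS libraries (adjusted p = 5.36e-06). Its region at chr7:105374230-105376152 had a fold enrichment of 10.17 and 6.97 and no PS interval. Only 2 genes of gained regions lay under 1 RPKM in both PS and at or above 10 RPKM in both RS, and 4 of all 23343 genes did. 1700080E11Rik rose from 3.43 and 5.89 to 125 and 129 RPKM (log2 fold change 4.81 ± 0.24, adjusted p = 3.43e-06). Ubqlnl, a ubiquilin-like gene, rose from 4.58 and 6.54 to 132 and 129 RPKM (log2 fold change 4.59 ± 0.20, adjusted p = 3.29e-06).

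The remaining large rises were of rare transcripts. 1700025K24Rik (2.32 and 1.38 RPKM in RS) and Dlx5, a homeobox factor of skeletal and neural development (0.824 and 1.22 RPKM), had no PS reads and were at least 10.5-fold and at least 9.58-fold above the floor. Speer5-ps1, a pseudogene of the Speer family whose copies are alike, and 4933428C19Rik reached between 1.49 and 4.48 RPKM in RS. Cd33, a receptor of myeloid cells, rose from 0.105 and 0.072 to 1.41 and 2.23 RPKM, and its gained region was narrow (288 bp, fold enrichment 2.85 and 4.64). Of the 5 immune and endothelial markers examined, 4 were also higher in RS, and their summed RPKM was 2.32 and 2.15 in PS and 13.2 and 11.5 in RS, with none at 0 in all samples. The part of such cells in the Cd33 values was not tested.

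**Figure D5:**
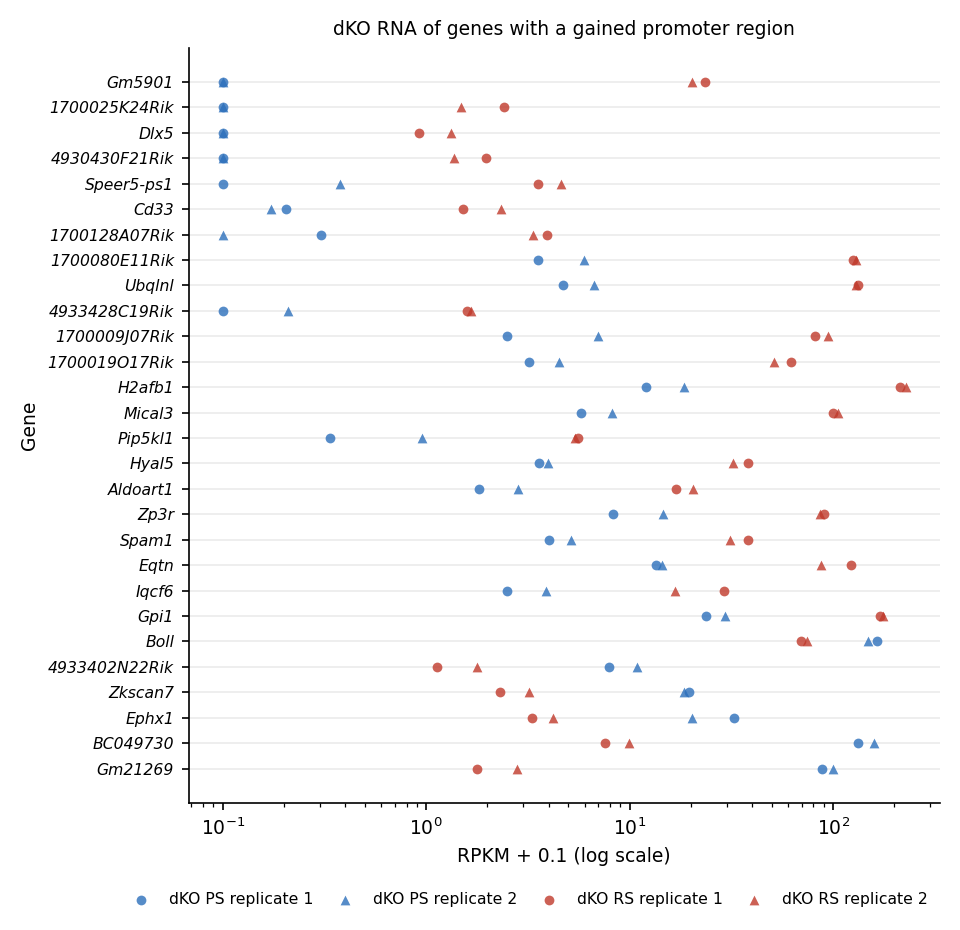
dKO RNA of genes with a gained promoter region, as RPKM + 0.1 on a log scale (x axis), 1 gene per row (y axis), with PS in blue, RS in red, replicate 1 as circles and replicate 2 as triangles. The genes are those with the largest rises and falls, the widest regions, and the members of 4 gene lists (chromatin condensation, acrosome, energy metabolism and postmeiotic control). Only the 5 largest falls and Boll have both RS samples below both PS samples.

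Genes that fell despite a gained region were fewer, and 44 of the 55 also had another promoter region in PS. Gm21269, a noncoding gene, fell from 88.3 and 99.3 RPKM in PS to 1.67 and 2.68 RPKM in RS (log2 fold change -5.41 ± 0.25, adjusted p = 3.29e-06). Its gained region had 5.70 and 3.48 in the RS replicates and separate intervals of 4.12 and 4.38 in the PS replicates. A PS region lay 335 bp away, so little separates the stages there. BC049730 fell from 133 and 159 to 7.44 and 9.85 RPKM (log2 fold change -4.04 ± 0.19, adjusted p = 3.29e-06), and its summit lay 1619 bp downstream of the start site. Zkscan7, a zinc finger gene, fell from 19.5 and 18.3 to 2.21 and 3.09 RPKM, and 4933402N22Rik fell from 7.84 and 10.8 to 1.03 and 1.69 RPKM. Ephx1, microsomal epoxide hydrolase, fell from 32.3 and 20.1 to 3.22 and 4.08 RPKM (log2 fold change -2.80 ± 0.26, adjusted p = 3.28e-05). It had no promoter region in PS, but an interval of PS replicate 2 (4.93) lay in its gained region (5.29 and 4.64 in RS). The strongest gained regions of BC049730 and 4933402N22Rik also held an interval of PS replicate 2 (3.29 and 4.93), and that of Zkscan7 held none. The 6 Leydig cell markers, which include Insl3 and Cyp17a1, were all lower in RS, with summed RPKM of 729 and 547 in PS and 68.3 and 42.6 in RS and none at 0, and their part in the falls was not tested.

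Groups of genes with known roles in spermatids mostly had promoters acetylated in both stages. Over all 23343 genes, 10769 had a kept and 636 a gained promoter region. The 23343 also hold genes outside the autosomes, which could have neither. Of 41 autosomal acrosome and fertilization genes, 37 had a kept and 4 a gained promoter region, with Eqtn in both counts. The 4 were Spam1 and Hyal5, the sperm hyaluronidases, Zp3r, a protein of the acrosomal matrix, and Eqtn, equatorin of the acrosomal membrane. All 4 were called higher, beside 24 of the 41 tested list genes. Spam1 rose from 3.93 and 5.07 to 37.9 and 30.9 RPKM (log2 fold change 2.99 ± 0.21) and Hyal5 from 3.48 and 3.87 to 38.1 and 32.2 RPKM (3.30 ± 0.19), and these neighbours on chromosome 6 had regions of 9.76 and 6.97 and of 7.32 and 8.13. Zp3r rose from 8.15 and 14.5 to 89.6 and 86.2 RPKM, and Eqtn, which had another promoter region in PS, from 13.4 and 14.4 to 122 and 86.8 RPKM.

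In chromatin condensation, 14 of 15 list genes had a kept region, and H2afb1, which encodes a short H2A variant of spermatids, had a gained region of 9.36 and 6.39. It rose from 11.9 and 18.4 to 213 and 227 RPKM (log2 fold change 3.90 ± 0.22, adjusted p = 3.98e-06). In the whole list, 10 of the 15 genes were called higher. Of 25 genes of germ cell energy metabolism, 22 had a kept region and 2 a gained one. The latter 2 were called higher, beside 10 of the 25 list genes tested. Aldoart1, a sperm aldolase, rose from 1.71 and 2.72 to 16.8 and 20.3 RPKM, and Gpi1, glucose-6-phosphate isomerase, from 23.7 and 29.2 to 170 and 177 RPKM. The gained region of Gpi1 lay 274 bp from a PS region and did not reach the start site, and Gpi1 had another promoter region in PS. In the list for the ubiquitin system of spermatids, Ubqlnl, described above, and the transmembrane protein gene Tmem225 had gained regions and rose, Tmem225 from 12.9 and 13.3 to 93.3 and 92.8 RPKM. In the whole list, 13 of the 19 genes tested were called higher. The gained region of Tmem225 lay 283 bp from a PS region and did not reach the start site, and Tmem225 had another promoter region in PS.

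Boll, a DAZ-family regulator of translation in meiotic cells, was the sole member in the list of postmeiotic transcription and RNA control. It fell from 164 and 148 to 69.1 and 74.4 RPKM (log2 fold change -1.08 ± 0.13, adjusted p = 0.00012), with a gained region of 7.73 and 5.81 beside another promoter region in PS. No gained region belonged to the 44 genes of the flagellum and head-tail coupling, the 20 sperm channels and transporters, the 21 spermatid kinases and phosphatases, the 37 meiotic prophase genes or the 83 autosomal cytoplasmic ribosomal proteins. Of these lists, 43, 14, 21, 36 and 77 genes had a kept region. With 636 of all 23343 genes having a gained region, lists of this length can hold none, and nothing is read from their absence. Among 49 autosomal Spata and Tex genes, 5 had a gained region, of which Spata31d1a, Spata31d1b, Spata31d1c and Spata9 rose, Spata9 from 8.67 and 13.1 to 88.4 and 77.1 RPKM. In the whole list, 29 of the 48 genes tested were called higher. Of the 5, Spata31d1b, Spata9 and Tex22 had another promoter region in PS. Tex22 was at 109 and 111 RPKM in PS and at 126 and 106 RPKM in RS and was not called. The Spata31d1 copies are alike in sequence, and their values are uncertain.

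Of 163 autosomal developmental factors, 3 had a gained region, beside 636 of all 23343 genes. Foxh1 (7.84 and 8.44 RPKM in PS, 6.96 and 9.38 in RS) and Sox6 (16.1 and 13.3, then 18.7 and 15.7) were not called, and Sox15 had a single read, in RS replicate 2 (0.0746 RPKM), and was not tested. Of 349 autosomal Zfp genes, 10 had a gained region, of which 4 were called higher, 3 lower and 3 not called. Of the 288 Zfp genes tested, 57 were higher and 118 lower, and with so few members nothing is read from their counts beside the 30.4% and 27.6% of all genes tested. Zfp474 rose the most, from 6.59 and 7.79 to 61.8 and 54.1 RPKM, with a region of 8.95 and 11.03. Of the 10, only Zfp474 and Zfp775 had no other promoter region in PS. Zfp516 was higher by 1.43 ± 0.18 (log2), and Zfp583 and Zfp691 were higher with calls that did not hold under every alternative. Zfp472 fell by 2.13 on the log2 scale, and Zfp809 and Zfp518a fell with calls lost when a replicate was left out. Zfp560, Zfp572 and Zfp775 were not called, although Zfp572 was called lower without PS replicate 1. Among the cell type markers examined, Stra8 and Sohlh1, genes of spermatogonia and of entry into meiosis, had gained regions and were not called (adjusted p = 0.0824 and 0.0614).

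A few odorant and vomeronasal receptor genes had a gained region, with little RNA. Of 1424 autosomal receptor genes, 1407 had no promoter region in either stage, 13 had a gained one and 5 a kept one. Of all 23343 genes, 636 had a gained region. The strongest region of each of the 13 genes had a fold enrichment between 4.07 and 13.0 in RS replicate 1, and no receptor exceeded 2.14 RPKM in any sample. Olfr112, Olfr128, Olfr212, Olfr701 and Vmn2r-ps11 passed the count filter and all 5 were called higher, Vmn2r-ps11 from 0.155 and 0.119 to 2.02 and 2.14 RPKM and Olfr128 from 0.189 and 0.097 to 1.39 and 1.37 RPKM. These 5 passed the filter with few PS reads, so their calls are tied to the filter. In the other 8 the highest value was 1.91 RPKM, in Olfr761. Of the 13 genes, only Olfr128 and Vmn2r-ps11 had another promoter region in PS.

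Some gained regions lay in runs. With gaps of at most 100000 bp, 16 runs of 3 or more gained regions held 61 of the 699. On chromosome 17, 6 regions of Olfr126, Olfr127, Olfr128 and Olfr761 lay between 37850508 and 37953099. On chromosome 13, 5 regions of 4921517D22Rik, Spata31d1a and Spata31d1b lay between 59693584 and 59715099, and 4921517D22Rik rose from 0.307 and 0.573 to 9.12 and 7.57 RPKM. On chromosome 8, the neighbouring metalloprotease genes Adam26a and Adam26b had regions of 8.14 and 6.39 and of 6.92 and 5.81. Adam26a rose from 1.198 and 0.976 to 10.8 and 8.04 RPKM and Adam26b from 0.328 and 0.524 to 4.46 and 3.46 RPKM. These genes were named for their place in a run, after their values were seen.

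The RNA samples had 9655405 to 12289694 reads on genes. Round spermatid markers such as Prm1 and Tnp1 were called higher in RS in 8 of 8, with summed RPKM of 447 and 770 in PS and 13090 and 13920 in RS. Markers of pachytene spermatocytes were lower in 5 of 7. Reads of the deleted genes remained in all 4 samples, with 50 to 110 reads for Rnf8 and 40 to 98 for Scml2, and without wild-type RNA here these counts do not check the deletions. None of the 45 cell type markers was at 0 in every sample.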

How the data were processed

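H3K27ac ChIP-seq was measured in wild-type cells and RNA-seq in dKO cells. Per the submitters' processing notes, ChIP reads were mapped by the authors to mm10 using Bowtie 1.1.1, and MACS2 2.1.0.20140616 was run on every sample separately. The deposited lists give, per summit, the pileup (fragment coverage, unscaled), the fold enrichment (a ratio of pileup to a constant background, without input), and −log10 p and q values. For RNA-seq, the authors aligned reads with STAR 2.4.2a, kept unique alignments, and deposited an estimated count per RefSeq isoform group, split by expectation maximization and written as whole numbers, and RPKM. Unique alignment lowers the values of genes with near-identical copies.

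Isoform counts were summed to genes and tested with edgeR 4.0.16 (R 4.3.3), quasi-likelihood, TMM scaling, stage as the only term, 4 dKO samples. Genes needed 10 counts in 2 samples. A call needed an adjusted p under 0.05 and a fold over 1.5. DESeq2 1.42.0 was an alternative. All adjusted p-values printed without a tool are edgeR's. CpG content and motifs were read from the genome at the start sites given in the deposited lists, since the RefSeq promoter table held 449 of 637 gained gene names. To check the reading, a sample of 314 autosomal RefSeq promoter windows was read from the genome at their RefSeq start sites, and all 314 were identical. The start sites of the deposited lists were not part of this check.

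Genes were named as the 10 strongest and 5 widest gained regions, the 10 largest rises and 5 largest falls among called genes with a mean of at least 1 RPKM in the higher stage, the members of the gene lists, and the regions at the edge of the rule. The members and lists were chosen with earlier results of these data known. Replicates are separate samples by the labels, and the p-values rest on the spread between replicates as shared across genes. ChIP read totals are unknown, and with 2 samples per stage no exact test of a single gene could reach 0.05. Alternatives changed the interval threshold, the overlap, the class, the scaling, the filter, the replicate block and the replicates included. Some results are not reported here.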

Additional observations from a re-analysis of the deposited data

How the results depend on the processing

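The number of gained regions depended most on the peak lists. It was 390 when an interval in either PS replicate counted, and 529 to 3269 when a replicate was left out, with 1562 without RS replicate 1 and 3269 without RS replicate 2, where a single list defined RS. The other 7 alternatives gave 544 to 938. Regions with no PS interval had a median fold enrichment of 4.996, and RS replicate 2 alone gave a median width of 310 bp. In each alternative except those on which genes count as members, the genes of gained regions called higher stayed within 1.5 times of 337 (230 to 335 with a replicate left out). Genes of regions with no PS interval gave 171 higher and 25 lower, genes with a start site inside gave 197 and 10, and leaving out genes with a promoter region in PS gave 246 and 11. The median log2 fold change was 1.817 without TMM, 0.573 with RPKM + 1, 1.339 with RPKM + 0.1, 1.96 for regions with no PS interval, 2.621 without genes that have a promoter region in PS, and 1.304 to 1.927 with a replicate left out, the lower values without an RS replicate (1.304 and 1.366). With a single RS sample left, no gene could pass the count filter through RS counts alone. The genes of gained regions tested were then 432 without RS replicate 1 and 431 without RS replicate 2, against 522 in the main fit. The cause of the lower medians was not tested.

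With the replicate number as a replicate block, 340 genes of gained regions were higher and 59 lower, with a median of 1.881, and over all genes 4589 were higher and 4134 lower. For the peak lists, pairing each PS replicate with the RS replicate of its number gave 2237 regions on average, since a single list then defined each stage. The labels do not say that a number marks an animal, and the deviations of PS and RS replicate 1 from their stage means had an r of 0.225 across 14647 genes.

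Of 56 named genes tested, 47 kept direction and call in every alternative in which they could be fitted. The sign turned for 3 genes that were not called: Foxh1 ranged from -0.0797 to 0.3337 and Zfp560 from -0.2256 to 0.0677 with a replicate left out, and Zfp775 from -0.0643 to 0.2218, with -0.0009 without TMM. Calls were lost in some alternatives for Gm5592, Zfp518a, Zfp583, Zfp691 and Zfp809. Zfp572 was called lower only without PS replicate 1 (log2 fold change -0.71, adjusted p = 0.0495, edgeR), against adjusted p of 0.189 to 0.76 in its other settings. Low pileups and few reads limit the weakest regions and the rarest transcripts.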
